A study of Mus musculus with 2 samples.

Results

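Inflammatory monocytes of MTC-Q1 tumours were taken as barcodes with monocyte transcripts and few transcripts of macrophages, antigen-presenting cells or lymphocytes. The rule asked for at least 10 unique molecular identifiers (UMIs, each 1 counted transcript) of Lyz2, at least 3 of Plac8 and at least 2 of Chil3, Hp and Ifitm6 together. It also asked for fewer than 20 UMIs of C1qa, C1qb and C1qc together, fewer than 10 of H2-Ab1, at most 1 of Cd3d, Cd3e and Cd3g together, none of Cd79a, and at most 10% mitochondrial UMIs. The rule found 663 of 12514 barcodes, 83 of them in library 1 and 580 in library 2. The cells were thus chosen by their measured UMIs of these 13 genes and by mitochondrial UMIs. The levels of the 13 genes describe the choice and are no finding, and other genes of the same cells are described with no test.

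Inflammatory monocytes are short-lived cells that leave the bone marrow with the help of the chemokine receptor Ccr2 and enter inflamed tissue and tumours. In mice they carry the surface protein Ly6C, encoded in part by Ly6c2. Inside a tumour they can mature into macrophages or into cells rich in MHC class II, while non-classical monocytes, which stay mostly along vessel walls, carry little Ly6C and much Cx3cr1.

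The tumours grew under the skin of C57BL/6 mice from MTC-Q1 cells, a mouse oral carcinoma line. The study's groups were tumours of MTC-Q1 miR-21 KO cells, in which the microRNA miR-21 had been removed from the tumour cells, and tumours of MTC-Q1 WT cells, with 1 library each. Mice of both groups received cisplatin, a DNA-damaging drug, at 5 mg/kg after 2 weeks of tumour growth, and cells were isolated 72 h later, so neither group is free of the drug. Tumours were dissociated, dead cells were removed, CD45+ cells were held on magnetic beads, and 3′ ends of transcripts were sequenced in droplets. The sources do not give the number of animals behind a library, whether the knockout line is 1 clone, or which library number is which group. The libraries are therefore library 1 and library 2 below, without a direction between miR-21 KO and WT. With 1 library a group no test was possible, and every interval covers counting error alone, at the 95% level.

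The libraries differed in depth, in Xist and in ribosomal RNA. Library 1 held 5320 barcodes with a median of 7169 UMIs, and library 2 held 7194 with a median of 15247.5. Among the monocytes the order of the medians was the other way, 9809 UMIs in library 1 and 7717 in library 2, and mitochondrial UMIs had medians of 2.37% and 1.89%. Xist, expressed from the inactive X chromosome of female cells, had 519 CPM (counts per 1000000 UMIs) in library 1 monocytes and 0 in those of library 2. A count of 0 UMIs allows up to 3.54 CPM in library 1 monocytes (848232 UMIs in all) and 0.528 CPM in those of library 2 (5682997 UMIs), at 3 counts. Gm42418, a gene that overlaps ribosomal RNA, had 31854 CPM in library 1 monocytes and 8004 CPM in those of library 2. Of 8 barcode sequences present in both libraries, 1 was a library 1 monocyte and 0 were library 2 monocytes. The part of animal sex, depth and ribosomal RNA in the differences between libraries was not tested.

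The label of inflammatory monocytes was checked against Ly6c2, which the rule did not use. Ly6c2 was at 6438 CPM (6268 to 6611, exact Poisson) in library 1 monocytes and at 2474 CPM (2433 to 2515) in library 2 monocytes. It was found in 100% of the library 1 monocytes and in 96.2% of those of library 2, with medians of 52 and 14 UMIs per cell. T cells, some of which express Ly6c2 themselves, had it in 39.3% of barcodes in library 1 and 78.6% in library 2, at median depths of 6463 and 12506 UMIs. Ccr2 was found in 94.0% of the library 1 monocytes and in 87.8% of those of library 2, against 5.90% and 43.4% of T cells. Chil3, a chitinase-like protein of monocytes and neutrophils that stood in the rule, was found in 88.0% and 66.6% of the monocytes, against 0.821% and 1.69% of T cells. Set against T cells, Ly6c2 and Ccr2, which the rule did not use, go with the label in both libraries. Both genes lay within 2-fold of their levels in the MHC-II-high myeloid cells described below, and Ccr2 also of its level in C1q macrophages. Ccr2 thus does not set the monocytes apart from these nearest cells, nor does Ly6c2 at 2-fold from the MHC-II-high cells.

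Markers of granulocytes and dendritic cells were low, and those of macrophages were not. The 12 genes of the macrophage list summed to 3053 CPM in library 1 monocytes and 2555 CPM in library 2 monocytes, of which Apoe was 2086 and 1433 CPM, against 23446 and 26941 CPM in C1q macrophages. Per monocyte the list had a median of 5 UMIs in library 1 (range 0 to 167) and 7 in library 2 (0 to 156). Of 12 neutrophil genes, 5 had no UMI in library 1 monocytes and 5 none in those of library 2, with the granule gene Camp at 0 in both, and the summed level was 184 CPM in library 1 and 114 CPM in library 2. The calprotectin gene S100a8 was at 10.6 CPM in library 1 and at 32.7 CPM in library 2, and S100a9 at 0 and 9.68 CPM. The neutrophil surface marker Ly6g had 1 UMI in library 1 and 0 in library 2. Neutrophil genes not named here held most of the summed level. That sum was 62.9 and 68.6 CPM in C1q macrophages and 208 and 124 CPM in MHC-II-high myeloid cells. Mast cell and basophil markers summed to 0 and 0.880 CPM, and dendritic cell markers to 20.04 and 68.8 CPM. T, NK and B cell markers differed widely between libraries, with 14.2 CPM in library 1 and 516 CPM in library 2, where 4 and 2 of the 10 genes had no UMI. Their part in the results below was not tested.

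Monocytes made up a similar share of the myeloid cells of both libraries but not of all cells. They were 1.58% of barcodes in library 1 (83 of 5241 within the mitochondrial limit, exact Clopper-Pearson interval 1.26% to 1.96%) and 8.17% in library 2 (580 of 7098, 7.54% to 8.83%). Among barcodes with at least 10 Lyz2 UMIs and no T or B cell signal, they were 19.5% in library 1 (83 of 426, 15.8% to 23.6%) and 20.4% in library 2 (580 of 2850, 18.9% to 21.9%). These myeloid intervals overlap, while the shares of all barcodes were far apart. Within the same myeloid barcodes, macrophages with at least 20 C1q UMIs were 70.7% in library 1 and 66.7% in library 2, and MHC-II-high myeloid cells, with at least 10 H2-Ab1 UMIs and fewer C1q UMIs, were 6.81% and 5.68%. The limits are fixed UMI numbers, so depth can set these shares. Among barcodes of at least 10000 UMIs the monocytes were 12% of the myeloid barcodes in library 1 and 5.82% in library 2, so the likeness of the myeloid shares does not hold there.

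The limits of the rule cut through a continuous range. The 3 library 1 monocytes just inside the limit on Chil3, Hp and Ifitm6, with 2 UMIs, had 11521 CPM of Ly6c2, and the 4 barcodes just outside, with 1 UMI, had 12433 CPM. In library 2 the 52 monocytes just inside that limit had 2252 CPM of Ly6c2 and the 64 barcodes just outside had 2191 CPM. The limit on Plac8 met few cells: the 4 library 2 monocytes with 3 UMIs had 904 CPM of Ly6c2, and the 6 barcodes with 2 UMIs had 75.9 CPM.

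The monocytes were compared with the MHC-II-high myeloid cells (29 in library 1, 162 in library 2), which met the same limits on C1q and lymphocyte genes. Genes of adhesion and coagulation were among those higher in monocytes, and MHC class II genes among those lower. A gene counted as higher or lower where the ratio of its CPM was at least 2-fold in the same direction in both libraries, among genes with at least 100 UMIs over both kinds of cell in each library. Of 1570 such genes, 26 (1.66%) were higher and 19 (1.21%) lower in monocytes, and the median log2 ratio of all of them was 0.11 in library 1 and 0.05 in library 2. In library 1 the monocytes held 848232 UMIs against 337037 in the MHC-II-high cells, so genes higher in monocytes passed the minimum more readily. In library 2, 30 of the 162 MHC-II-high barcodes held over 20000 UMIs, and 41.7% of the UMIs of these cells lay in them. They stayed in the comparison, and the granzyme gene Gzmc was at 572 CPM in the library 2 MHC-II-high cells. Dendritic cell markers summed to 134 and 390 CPM in the MHC-II-high cells, against 20.04 and 68.8 CPM in monocytes.

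Slpi, a secreted inhibitor of leukocyte proteases, was at 395 CPM in library 1 monocytes and 637 CPM in library 2 monocytes, against 8.90 and 88.4 CPM in MHC-II-high cells. Its log2 ratio was 5.47 in library 1 (3.91 to 7.76, exact conditional binomial) and 2.85 in library 2 (2.64 to 3.06). F13a1, the A chain of coagulation factor XIII, was at 381 and 207 CPM in monocytes, against 44.5 and 52.4 CPM. Both libraries thus had a higher level in the monocytes than in MHC-II-high cells for each of these genes. In C1q macrophages F13a1 was at 58.2 CPM in library 1 and at 202 CPM in library 2, where it was level with the monocytes.

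Vcan, the matrix proteoglycan versican, was at 297 CPM in library 1 monocytes and 220 CPM in library 2 monocytes, against 80.1 and 52.8 CPM in MHC-II-high cells. Thbs1 encodes thrombospondin 1, a secreted matrix glycoprotein that activates TGF-beta. It was at 1243 CPM in library 1 monocytes and 1279 CPM in library 2 monocytes, against 404 and 373 CPM, with log2 ratios of 1.62 (1.36 to 1.89) and 1.78 (1.67 to 1.88). F10, coagulation factor X, was at 117 and 118 CPM, against 53.4 and 55.0 CPM. Of 18 measured genes of adhesion, matrix and coagulation, 6 were higher in monocytes, Thbs1, F13a1, F10 and Vcan included, and 0 lower, with medians of 0.62 in library 1 and 0.55 in library 2.

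Among the 18 genes of the classical monocyte list, 4 were higher than in MHC-II-high cells, Vcan and F13a1 included, and 0 lower, with medians of 0.80 and 0.56. Ly6c2 itself was at 6438 and 2474 CPM in monocytes, against 3273 and 1742 CPM, and its log2 ratios of 0.98 and 0.51 did not reach 2-fold. Ccr2 had ratios near 0 in both libraries, 0.13 and -0.02. Both genes were therefore also present in the MHC-II-high cells at levels within 2-fold of the monocytes.

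Single enzymes that handle oxidants and haem were also higher, though of 6 measured metallothionein and NRF2 genes 1 was higher (Hmox1) and 0 lower. Gsr, which regenerates glutathione, was at 222 CPM in library 1 monocytes and 178 CPM in library 2 monocytes, against 32.6 and 46.6 CPM. Hmox1, the haem-degrading enzyme haem oxygenase 1, was at 144 and 556 CPM in monocytes, against 41.5 and 219 CPM, so that its ratio was alike in both libraries (1.79 and 1.35) while its level was not. Mgst1, a glutathione transferase, was at 288 and 248 CPM, against 92.0 and 48.4 CPM. Each of these genes was above 2-fold over MHC-II-high cells in both libraries. Over C1q macrophages Hmox1 had log2 ratios of 0.34 and 1.12, short of 2-fold in library 1.

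Receptors and signals of inflammation followed. Clec4e and Clec4d, lectins that sense microbial glycolipids, were both higher in monocytes: Clec4e was at 480 CPM in library 1 monocytes and 479 CPM in library 2 monocytes, against 178 and 208 CPM. Ccl2, the chemokine that draws Ccr2-bearing monocytes, was at 1102 and 947 CPM in monocytes, against 395 and 382 CPM in MHC-II-high cells, with log2 ratios of 1.48 (1.22 to 1.76) and 1.31 (1.21 to 1.41). Of 12 measured chemokine ligands it was the 1 that was higher, and Cxcl16, a membrane-bound ligand, the 1 that was lower, with 159 and 150 CPM against 534 and 384 CPM. None of 9 measured inflammatory cytokine and inflammasome genes was past 2-fold in both libraries, and Il1b was at 949 and 1411 CPM in monocytes, against 1543 and 1807 CPM.

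The genes that were lower in monocytes were led by those of MHC class II, in which the rule itself held H2-Ab1. H2-Eb1 was at 44.8 CPM in library 1 monocytes and 30.3 CPM in library 2 monocytes, against 4382 and 4029 CPM in MHC-II-high cells. No count is given for the MHC class II list, on which the limit on H2-Ab1 bears. Outside that list, the B cell and myeloid receptor Cd72 was at 47.2 and 24.6 CPM in monocytes, against 249 and 174 CPM, and the mannose receptor Mrc1 at 24.8 and 23.8 CPM, against 249 and 50.6 CPM.

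**Figure D1:**
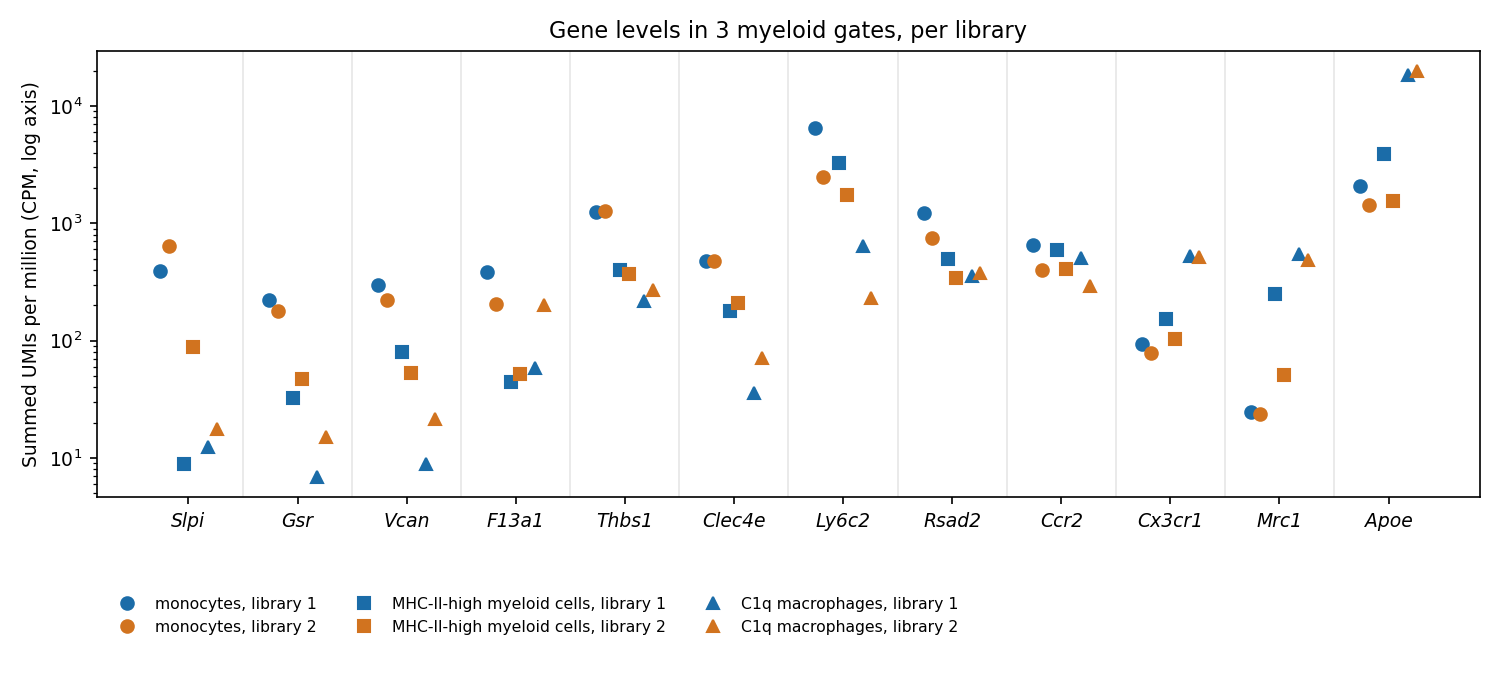
Levels of 12 genes as CPM of summed UMIs (vertical log axis), with monocytes as circles, MHC-II-high myeloid cells as squares and C1q macrophages as triangles, each library in its own colour. Slpi, Gsr, Vcan and Thbs1 were higher in monocytes than in both other kinds of cell in each library, Ccr2 lay within 2-fold of both, and Mrc1 and Apoe were highest in C1q macrophages.

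The second comparison was with C1q macrophages (301 in library 1, 1901 in library 2), the most frequent myeloid cells of the tumours. Genes of the classical monocyte list and of the cytokine and inflammasome list were among those higher in monocytes, and macrophage genes among those lower. Of 5993 genes tested, 164 (2.74%) were higher and 578 (9.64%) lower in monocytes, and the median log2 ratios were -0.23 in library 1 and -0.28 in library 2. The macrophage barcodes were deeper, with medians of 16378 and 17307 UMIs, and the part of depth in these counts was not tested. In library 1 the macrophages held 5632344 UMIs against 848232 in the monocytes, and the UMI minimum was on both together. Genes higher in macrophages thus passed it more readily, here and in the list counts below.

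Ly6c2 was at 6438 CPM in library 1 monocytes and 2474 CPM in library 2 monocytes, against 638 and 232 CPM in macrophages. Its log2 ratios were 3.34 (3.28 to 3.40) and 3.42 (3.38 to 3.46), nearly the same in both libraries. Vcan was at 297 and 220 CPM in monocytes, against 8.88 and 21.7 CPM, with log2 ratios of 5.06 (4.62 to 5.53) and 3.35 (3.22 to 3.48). Of 18 measured classical monocyte genes, 9 were higher in monocytes and 0 lower, with medians of 1.27 in both libraries. Ccr2 was again not among them: it was at 651 CPM in library 1 monocytes and 401 CPM in library 2 monocytes, against 510 and 294 CPM in macrophages.

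Among the receptors, Clec4e was at 480 and 479 CPM in monocytes, against 36.0 and 70.7 CPM in macrophages, and Trem1, which amplifies inflammatory signals, at 112 and 110 CPM, against 19.7 and 42.1 CPM. Ltb4r1, the receptor of the chemoattractant leukotriene B4, was at 119 and 111 CPM in monocytes, against 21.5 and 16.6 CPM. Plaur, the urokinase receptor, was at 532 and 622 CPM, against 132 and 129 CPM. Cx3cr1, the receptor associated with non-classical monocytes and macrophages, went the other way, with 94.3 and 78.5 CPM against 523 and 514 CPM. All of these genes were past 2-fold in both libraries.

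Among secreted signals, Il1b was at 949 CPM in library 1 monocytes and 1411 CPM in library 2 monocytes, against 424 and 433 CPM in macrophages, with log2 ratios of 1.16 (1.05 to 1.28) and 1.70 (1.66 to 1.74). The cytokine genes Osm and Il18, the inflammatory caspase Casp4 and the prostaglandin synthase Ptgs2 were higher with it, making 5 of 12 measured cytokine and inflammasome genes, against 1 lower (Il18bp, an inhibitor of Il18). Of 16 measured chemokine ligands, 1 was higher and 5 lower. All 18 listed ligands summed to 10048 CPM in library 1 monocytes and 11968 CPM in library 2 monocytes, against 9209 and 12366 CPM in macrophages. The lower ones included the monocyte-attracting Ccl7, Ccl8 and Ccl12, and Ccl12 was at 158 and 130 CPM in monocytes, against 662 and 1446 CPM in macrophages. Ccl2 did not reach 2-fold, with log2 ratios of 0.82 and -0.05.

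Among transcription factors, Cebpb, needed for the survival of Ly6C-low monocytes and for inflammatory gene induction, was at 2508 and 2004 CPM in monocytes, against 700 and 707 CPM in macrophages. Hif1a, the oxygen-sensing factor, was at 314 and 283 CPM, against 141 and 134 CPM. Maf, a factor of resident macrophages, was at 90.8 and 89.0 CPM, against 376 and 378 CPM. These 3 of 14 measured factors were past 2-fold, the first 2 higher and Maf lower.

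The macrophage list was lower in the monocytes in sum, and here too the rule had asked for few C1q UMIs. Its 12 genes summed to 3053 CPM in library 1 monocytes and 2555 CPM in library 2 monocytes, against 23446 and 26941 CPM in macrophages. Most of them passed the UMI minimum through the macrophages, so no count of lower genes is given for this list or for the next ones. Apoe, a lipid carrier, was at 2086 and 1433 CPM in monocytes, against 18372 and 19864 CPM. The folate receptor Folr2 had 0 UMIs in library 1 monocytes and was at 6.33 CPM in library 2 monocytes, against 97.7 and 224 CPM. The 12 lipid and efferocytosis genes, among them the receptors for dying cells Mertk and Axl, summed to 1057 and 955 CPM in monocytes, against 1998 and 1947 CPM in macrophages.

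DNA damage and division genes were described because the tumours had been exposed to cisplatin. The 20 listed p53 targets summed to 2394 CPM in library 1 monocytes and 2041 CPM in library 2 monocytes, against 3085 and 2855 CPM in macrophages. Bax, which promotes apoptosis, was at 127 and 175 CPM in monocytes, against 307 and 398 CPM. Cdkn1a, the p53-induced inhibitor of the cell cycle, was closer between the cells, with 928 and 849 CPM in monocytes, against 863 and 929 CPM in macrophages. The 20 cell cycle genes summed to 164 and 699 CPM in monocytes, against 1260 and 1450 CPM in macrophages, and 5 of them had no UMI in library 1 monocytes. Mki67, a marker of dividing cells, was found in 7.23% and 6.72% of monocytes, against 4.80% and 48.1% of T cells at their different depths.

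**Figure D2:**
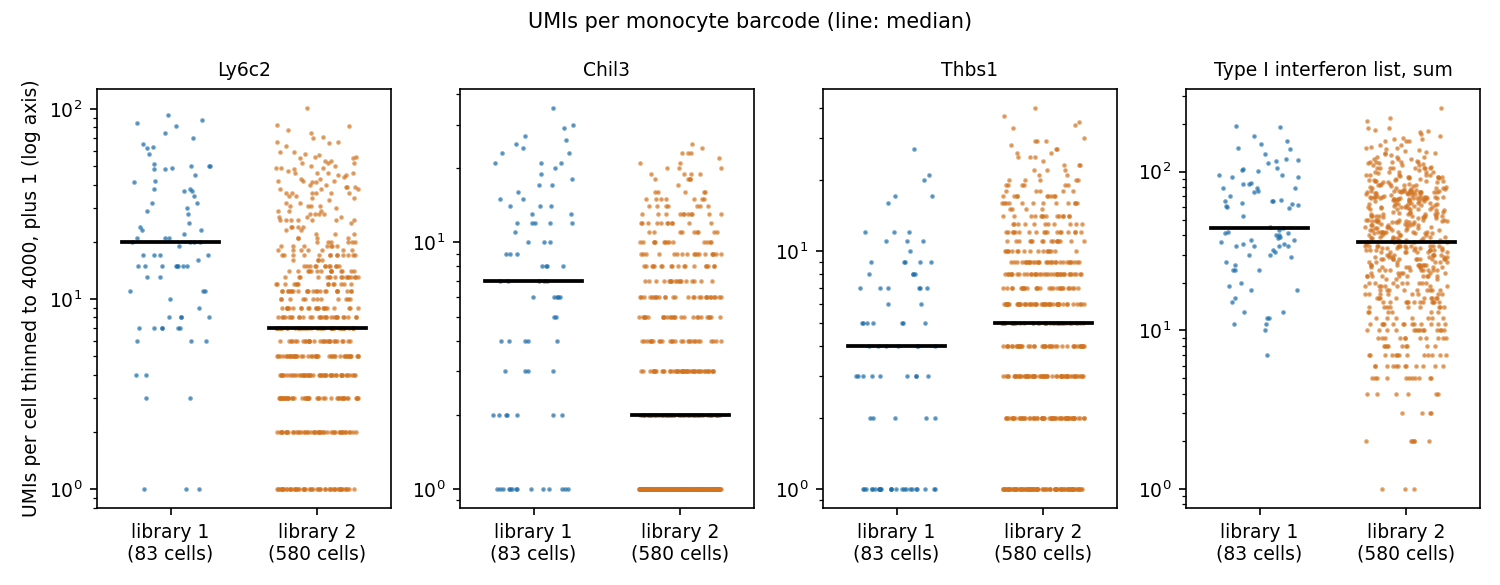
UMIs of Ly6c2, Chil3 and Thbs1 and of the summed type I interferon list in each monocyte barcode after thinning to 4000 UMIs (vertical log axis, 1 added), with 83 barcodes of library 1 and 580 of library 2 and a line at the median. The Ly6c2 median was 19 in library 1 and 6 in library 2, while both libraries ranged from 0 to over 90.

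Interferon-stimulated genes varied together from monocyte to monocyte. Interferons bind surface receptors and act through STAT and IRF transcription factors, which switch on antiviral genes in nearly every cell type. After each cell had been thinned to 4000 UMIs, the 30 genes of the type I interferon list summed to a median of 43 UMIs per monocyte in library 1 (range 6 to 194) and 35 in library 2 (0 to 251). Quartiles were 29 and 83.5 in library 1 and 15.8 and 67 in library 2, so the spread within a library was far wider than the difference of the medians. Isg15, a ubiquitin-like antiviral protein, was found in 95.2% of the library 1 monocytes and 89.5% of those of library 2, against 39.8% and 83.9% of T cells.

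The genes of that list went together over cells. For the 24 members with a thinned mean of at least 0.4 UMIs, the 276 pairs had a median Spearman rho of 0.31 in library 1 (range -0.09 to 0.75) and 0.31 in library 2 (0.06 to 0.70). Over all pairs of 1104 genes above the same mean the median was 0.003 in each library. Such correlations describe cells that share a library and its depth, and no p is given. Of the 1104 genes, those most like Isg15 over the monocytes were Ifit3 (rho 0.71 in library 1 and 0.70 in library 2), Irf7 (0.68 and 0.68) and Phf11b (0.72 and 0.66). Those least like it included the translation genes Naca (-0.45 and -0.41) and Eef1a1 (-0.39 and -0.39).

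Single genes differed in how they went with the interferon sum. Cxcl10, which attracts T cells through Cxcr3, had a rho of 0.60 with the interferon sum in library 1 and 0.63 in library 2, Ly6c2 had 0.22 and 0.36, and Lyz2, the monocyte lysozyme, -0.32 and -0.23. The total UMIs of the barcode had -0.008 and -0.15. Plac8, which stood in the rule, had a rho with Isg15 of 0.40 and 0.56. For Chil3 and Lyz2, which stood in the rule too, the rho with Isg15 was 0.03 and 0.09 for Chil3 and -0.32 and -0.25 for Lyz2. Nothing is read from the values of these rule genes.

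**Figure D3:**
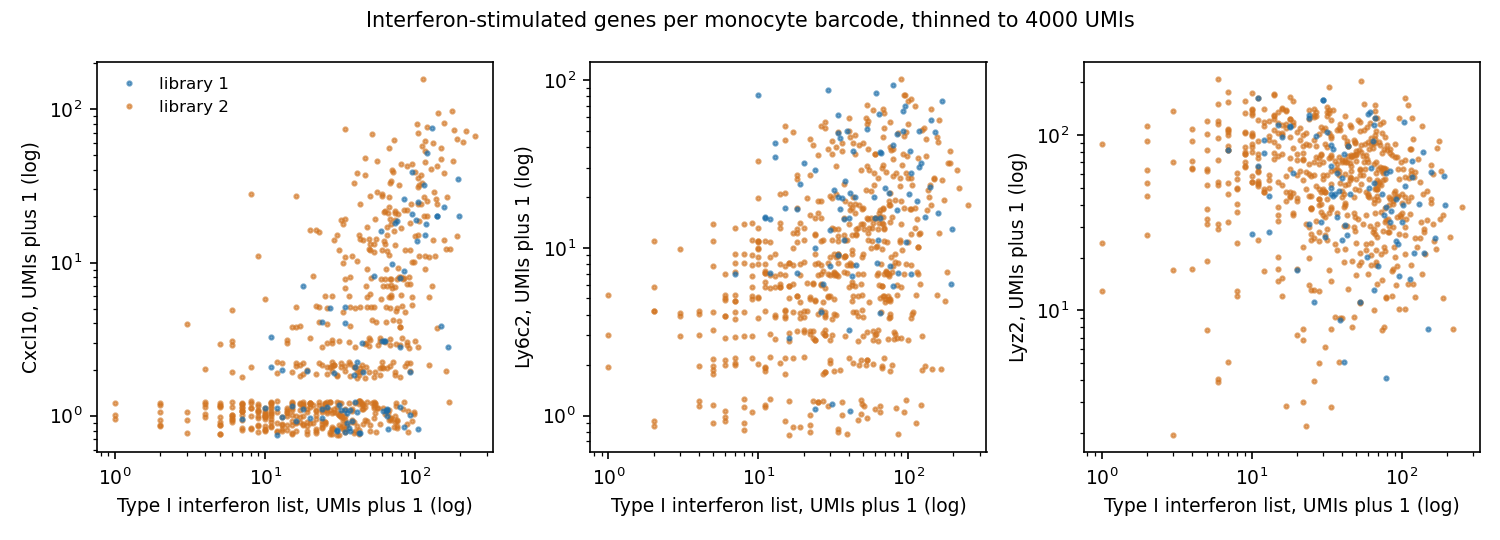
Cxcl10, Ly6c2 and Lyz2 (vertical log axes) against the summed type I interferon list (horizontal log axis) per monocyte barcode, all thinned to 4000 UMIs with 1 added and with a small vertical jitter. Cells with a high interferon sum had more Cxcl10 in both libraries (rho 0.60 and 0.63). Lyz2, whose level the rule limits, had -0.32 and -0.23, and nothing is read from these values.

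Some interferon genes were also higher in monocytes than in the other myeloid cells. The monocyte rule asked for Plac8, whose rho with Isg15 was 0.40 and 0.56, and the limits of the other cells did not. The part of this choice in the interferon ratios here and in the next paragraph was not tested. Against C1q macrophages, 6 of 30 were higher and 1 lower (Ifi44), with medians of 0.96 in library 1 and 0.47 in library 2. Isg15 was at 2259 CPM in library 1 monocytes and 1727 CPM in library 2 monocytes, against 793 and 738 CPM. Cxcl10 was at 1702 and 1682 CPM in monocytes, against 501 and 800 CPM in macrophages. Both genes were past 2-fold in both libraries, with the wider gap in library 1.

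Against MHC-II-high cells, 4 of 29 measured interferon genes were higher and 0 lower, with medians of 0.77 and 0.46. Rsad2, the antiviral enzyme viperin, was at 1228 and 748 CPM in monocytes, against 495 and 340 CPM. Slfn4, a schlafen family member induced in myeloid cells, was at 373 and 165 CPM, against 86.0 and 62.0 CPM. Isg15 had a log2 ratio of 1.23 in library 1 and 0.39 in library 2 and was not counted.

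The stretches of 250 bases before the start of transcription are printed for the 4 interferon-response genes on which these results turn and whose windows hold the motif searched for. The motif was GAAA, any 2 bases and GAAA again, the core of the interferon-stimulated response element. It was searched on both strands (TTTC, any 2 bases and TTTC on the other), with overlapping matches counted. The sequences are from RefSeq on GRCm38.p6, written 5′ to 3′ along the gene's strand, and capitals mark the bases covered by the motif.
Isg15, chr4:156200819-156201068, minus strand: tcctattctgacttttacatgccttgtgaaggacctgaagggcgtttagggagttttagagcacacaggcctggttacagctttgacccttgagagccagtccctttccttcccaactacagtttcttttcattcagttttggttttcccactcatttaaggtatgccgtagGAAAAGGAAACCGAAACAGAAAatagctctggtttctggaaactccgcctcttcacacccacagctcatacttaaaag
Ifit3, chr19:34583279-34583528, plus strand: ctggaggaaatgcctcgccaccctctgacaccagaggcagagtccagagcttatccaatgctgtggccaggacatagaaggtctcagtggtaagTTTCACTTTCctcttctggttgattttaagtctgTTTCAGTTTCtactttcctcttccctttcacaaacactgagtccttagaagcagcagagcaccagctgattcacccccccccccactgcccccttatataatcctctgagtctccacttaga
Rsad2, chr12:26456453-26456702, minus strand: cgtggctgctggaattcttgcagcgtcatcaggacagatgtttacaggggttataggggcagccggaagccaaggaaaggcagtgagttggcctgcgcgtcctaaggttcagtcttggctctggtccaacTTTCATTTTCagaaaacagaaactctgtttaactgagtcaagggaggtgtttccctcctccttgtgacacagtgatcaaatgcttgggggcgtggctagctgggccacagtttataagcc
Cxcl10, chr5:92348890-92349139, minus strand: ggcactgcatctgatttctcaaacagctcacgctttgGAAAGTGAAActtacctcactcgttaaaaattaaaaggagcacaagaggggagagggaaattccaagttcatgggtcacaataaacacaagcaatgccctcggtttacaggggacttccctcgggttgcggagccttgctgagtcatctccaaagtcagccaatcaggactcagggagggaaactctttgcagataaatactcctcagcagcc

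Isg15 had 3 overlapping matches on its own strand, beginning 78, 72 and 66 bases before the start, and they make the single run of capitals in its sequence. Ifit3 had 2 matches on the opposite strand, beginning 156 and 122 bases before the start. Rsad2 had 1 on the opposite strand, 120 bases before the start, and Cxcl10 had 1 on its own strand, 213 bases before. Irf7, also closely correlated with Isg15, had 0 in its window. A match is a run of letters and not a measured site.

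Over windows that reach from 250 bases before to 50 after the start, 12 of the 23 type I interferon genes in the promoter table held the motif (52.2%). In the interferon gamma list it was held by 10 of the 14 genes in the table (71.4%). In the 13 classical monocyte genes in the table it was held by 2 (15.4%), and in all 32851 windows by 3.44%. Counted by gene, 3.99% of all 27025 genes held it in at least 1 window. Of the 8 genes most like Isg15 over monocytes, 6 held it (75%), and of the 6 genes in the table among the 8 most like Thbs1, 1 did.

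Ly6c2 varied widely among the monocytes. After thinning, 5 of the library 1 monocytes (6.02%) had at most 2 Ly6c2 UMIs, and 27 (32.5%) had at least 30. In library 2, 141 (24.3%) had at most 2 and 70 (12.1%) at least 30. The median interferon sum was 64 and 63 UMIs among cells with at least 30 Ly6c2 UMIs, against 30 and 24 among cells with at most 2. The library 2 values include the 29 barcodes of over 20000 UMIs examined below. Many of these had at most 2 Ly6c2 UMIs, and the values were not repeated without them.

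Genes of non-classical monocytes were commoner in the Ly6c2-poor cells. The mean sum of the 12 non-classical genes was 1.44 UMIs in library 1 and 0.457 in library 2 at 30 or more Ly6c2 UMIs, against 11.2 and 2.28 at 2 or fewer. Ace, the angiotensin-converting enzyme and a marker of non-classical monocytes, was detected in 18 of the 141 Ly6c2-poor cells of library 2 and in 4 of the 70 Ly6c2-rich ones. In library 1 it was found in 3 of 5 and in 0 of 27 cells, which allows a share of up to 11.1%. The Ly6c2-poor end of library 1 rests on these 5 cells, and depth was equal in all of these counts.

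Thbs1 marked another axis. It was found in 78.3% of the library 1 monocytes and 90.5% of those of library 2, against 0.882% and 6.65% of T cells, with thinned medians of 3 and 4 UMIs. The genes most like it were Cd14 (rho 0.40 in library 1 and 0.39 in library 2), the co-receptor for bacterial lipopolysaccharide, and the matrix genes Emilin2 (0.34 and 0.34) and Vcan (0.47 and 0.33). With Isg15 its rho was 0.22 and 0.03. Chil3, whose level the rule limits, had a rho of 0.30 and 0.23 with Thbs1 and of 0.02 and 0.11 with Ly6c2, and nothing is read from these values.

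The UMIs of Arg1 and Cxcl9, genes of arginine breakdown and of T cell attraction, were concentrated in a small part of the monocytes. Arg1 was found in 30.1% of the library 1 monocytes and 28.4% of those of library 2, against 1.46% and 6.39% of T cells. The 5% of monocytes with most of it held 65.8% and 73.7% of its UMIs. Cxcl9 was found in 15.7% and 9.31%, against 1.61% and 4.51% of T cells, and its top 5% of cells held 83.7% and 94.4%. For Isg15 the top 5% held 19.4% and 21.4%. These top 5% shares are of UMIs before thinning, so the depth of a barcode enters them. Arg1 went with the galectin gene Lgals1 (rho 0.36 and 0.35) and with Spp1, which encodes osteopontin (0.30 and 0.30). Its rho with Ifitm6, which stood in the rule, was -0.38 and -0.29, and nothing is read from that value. Nos2, the other arginine-consuming enzyme, was found in 2.41% and 2.07% of monocytes.

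Before the libraries were compared, barcodes of unusual size were examined. In library 2, 29 monocyte barcodes held over 20000 UMIs, up to 161165, and with 1207961 UMIs they made up 21.3% of all monocyte UMIs of that library. No library 1 monocyte was as large, the largest holding 19939. The large barcodes carried RNA of lymphocytes and stroma: Gzmc, a granzyme of cytotoxic cells, was at 2415 CPM in them and at 123 CPM in the other library 2 monocytes, and 84.2% of its UMIs lay in them. For Sparc and Col1a2, matrix genes of fibroblasts and tumour cells, the shares were 94.3% and 96.3%.

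These UMIs were not spread evenly. A sum of 7 lymphocyte and stromal genes (Gzma, Gzmb, Gzmc, Nkg7, Sparc, Col1a2 and Col3a1) reached at least 20 UMIs in 22 of the 29 large barcodes (75.9%) and in 11 of the 551 others (2.00%). In library 1 it reached that number in 0 of 83, which allows a share of up to 3.61%, with a maximum of 2 UMIs. Scrublet's automatic threshold marked 0% of barcodes in either library and so had not worked, and no doublets were removed. Most ratios between libraries are therefore given for all monocytes and for those of at most 20000 UMIs.

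**Figure D4:**
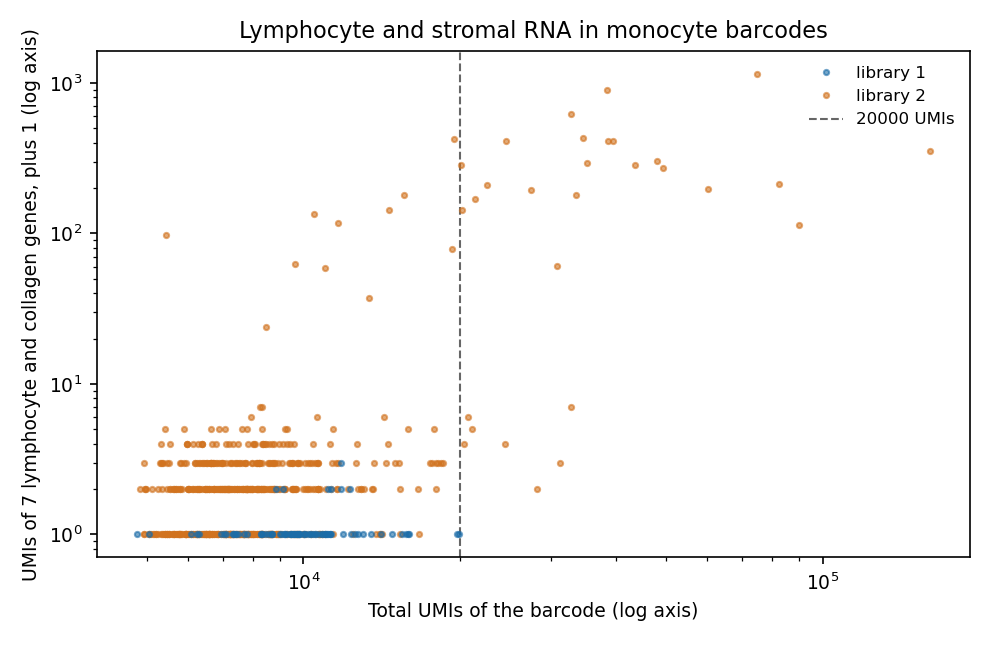
Summed UMIs of 7 lymphocyte and stromal genes, with 1 added, against the total UMIs of each monocyte barcode (both axes log), with a dashed line at 20000 UMIs. Of the 29 library 2 barcodes right of the line, 22 had at least 20 such UMIs, against 11 of the 551 library 2 barcodes left of it and 0 of the 83 of library 1.

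Of 5143 genes with at least 100 UMIs over both libraries, 242 (4.71%) were at least 2-fold higher and 360 (7%) at least 2-fold lower in library 1 than in library 2 monocytes. With monocytes of at most 20000 UMIs the numbers were 159 (3.09%) and 169 (3.29%). The balance also moved under 2 settings chosen after seeing the data. With free RNA estimated from NK cell genes subtracted, 418 genes were higher and 140 lower in library 1, and among cells of at least 10000 UMIs 685 were higher and 793 lower. Of the 242 genes 123 were still past 2-fold with monocytes of at most 20000 UMIs, and of the 360 genes 155. The median log2 ratio of all genes was 0.05, and 0.08 without the large barcodes. The UMI minimum rested mostly on library 2, whose monocytes held 5682997 UMIs against 848232 in library 1. Genes higher in library 2 thus passed it more readily, here and in the list counts below. Since each library is 1 sample, these values describe 2 libraries and not the study's groups.

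Interferon genes past 2-fold were higher in library 1, and fewer of them were once the large barcodes were left out. Of 30 type I interferon genes, 9 were higher and 0 lower (median 0.75), but without the large barcodes 2 were higher and 0 lower (median 0.54). All 30 had a ratio above 0 with all monocytes. Ifit2, an antiviral protein induced by interferon, was at 523 CPM in library 1 monocytes and at 222 CPM in those of library 2, for a log2 ratio of 1.23 (1.08 to 1.39), which was 0.97 without the large barcodes. Of 15 interferon gamma genes, 5 were higher and 0 lower (median 0.92), and 3 were higher without the large barcodes. Cxcl9 stayed past the limit, at 289 CPM in library 1 monocytes and 117 CPM in library 2 monocytes, with log2 ratios of 1.30 and 1.02.

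The monocyte lists gave smaller counts. Among the 18 classical monocyte genes, 2 were higher in library 1, Ly6c2 included, and 0 lower (median 0.50), and without the large barcodes 1 was higher and 1 lower (median 0.25). Of 8 measured non-classical monocyte genes, 3 were higher (Ace, Pou2f2 and Itgal) and 0 lower (median 0.81), and 2 were higher without the large barcodes (median 0.61). Ly6c2 was at 6438 CPM in library 1 monocytes and 2474 CPM in library 2 monocytes (3027 CPM without the large barcodes), with log2 ratios of 1.38 (1.33 to 1.43) and 1.09. Without the large barcodes Cd14, at 683 CPM in library 1 monocytes and 1454 CPM in library 2 monocytes, was lower by 1.09, against a ratio of -0.83 with them. Ccr2 stayed within 2-fold, at 0.70 and 0.48.

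Stress and oxygen genes were the side that was lower in library 1, and this held without the large barcodes. Of 9 measured metallothionein and NRF2 genes, 0 were higher and 5 lower, both with all monocytes (median -1.32) and without the large ones (median -1.01). All 10 listed genes, with no UMI minimum, summed to 1213 CPM in library 1 monocytes and 2708 CPM in library 2 monocytes. Without the large barcodes the library 2 sum was 2787 CPM. NRF2 is the factor that induces antioxidant enzymes, and metallothioneins bind zinc and other metals. Hmox1 was at 144 CPM in library 1 monocytes and 556 CPM in library 2 monocytes, with log2 ratios of -1.95 (-2.22 to -1.69) and -2.21. Slc7a11, which imports cystine for glutathione synthesis, was at 125 and 326 CPM, with ratios of -1.38 and -1.64. The metallothionein Mt1 was at 138 and 449 CPM, with ratios of -1.70 and -1.50.

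Of 16 measured genes of hypoxia and glycolysis, 4 were lower in library 1 (Vegfa, Hilpda, Ero1l and Egln3) and 0 higher, and without the large barcodes 5 were lower (medians -0.52 and -0.58). All 18 listed genes, with no UMI minimum, summed to 4043 CPM in library 1 monocytes and 5841 CPM in library 2 monocytes. Without the large barcodes the library 2 sum was 5897 CPM. Vegfa, the vascular growth factor, was at 79.0 CPM in library 1 monocytes and 177 CPM in library 2 monocytes, with a ratio of -1.17 (-1.55 to -0.81), or -1.33 without the large barcodes. Hilpda, a lipid droplet protein induced by low oxygen, was at 57.8 and 152 CPM, with ratios of -1.39 and -1.42. Spp1 was at 144 and 675 CPM, with ratios of -2.23 and -2.14, and was found in 22.9% of the library 1 monocytes and 47.1% of those of library 2, against 2.65% and 34.9% of T cells. The neutrophil-attracting chemokines Cxcl3 and Cxcl2 had ratios of -1.52 and -0.66, or -1.75 and -0.87 without the large barcodes, with Cxcl3 at 34.2 CPM in library 1 monocytes and 98.2 CPM in library 2 monocytes. These genes were lower in library 1 whether or not the large barcodes were counted.

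The cell cycle list depended on the large barcodes. Its 20 genes summed to 164 CPM in library 1 monocytes, against 699 CPM in all library 2 monocytes and 213 CPM in those of at most 20000 UMIs. Its genes passed the UMI minimum mostly through library 2, so no count is read from it. Mki67 was at 10.6 CPM in library 1, against 27.3 CPM in all monocytes of library 2 and 6.03 CPM in those of at most 20000 UMIs, so its direction turned (-1.36 and 0.81). Genes of cells other than monocytes led the whole list of lower genes, with Sparc, Gzmc, Pf4 and Gzmb first. Without the large barcodes their log2 ratios were still -3.67, -5.12, -6.14 and -4.79, with the 0 UMIs of Gzmc in library 1 set to 3 counts. The library 2 monocytes of at most 20000 UMIs thus also held RNA of these genes.

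**Figure D5:**
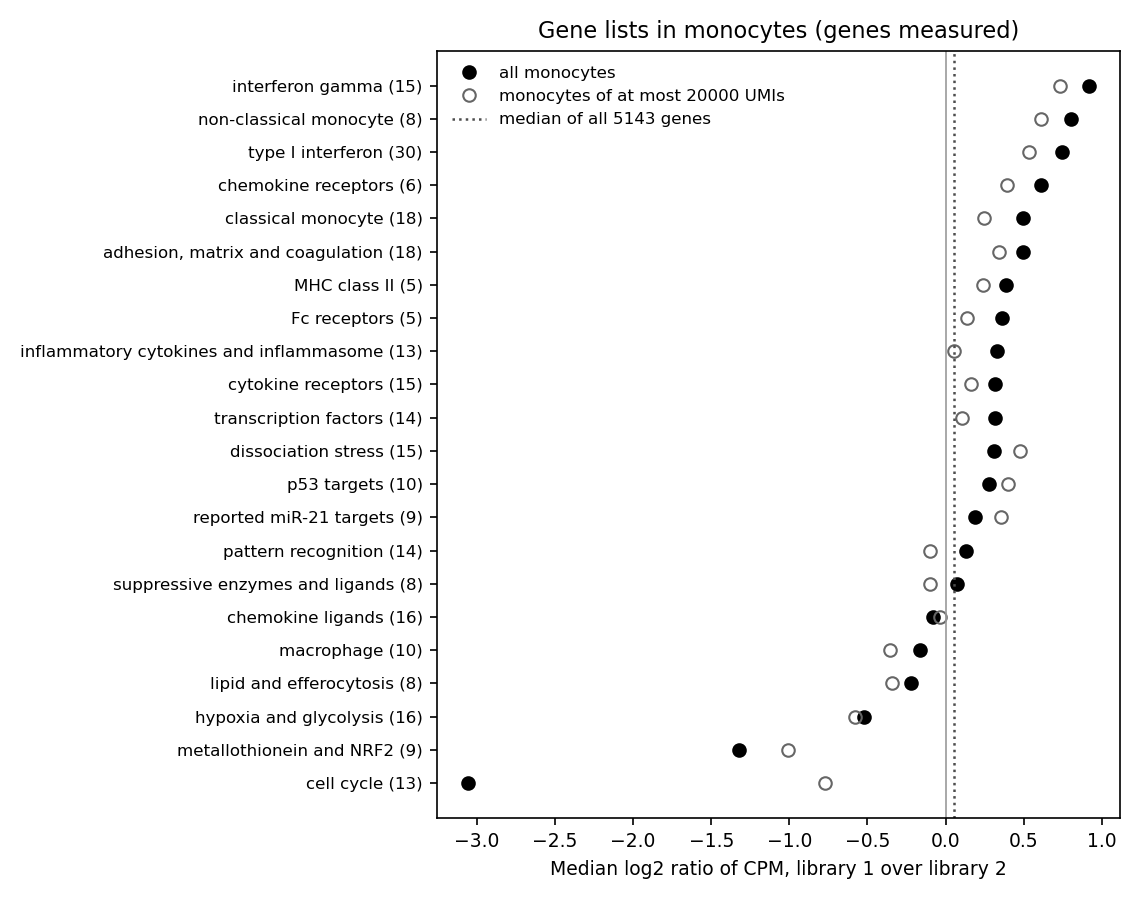
Median log2 ratio of CPM, library 1 over library 2, for each gene list with at least 5 measured genes (number in brackets), over all monocytes (filled circles) and over those of at most 20000 UMIs (open circles), with a dotted line at the median of all 5143 genes. The interferon lists lie right of that line (0.92 and 0.75), the metallothionein and NRF2 list left of it (-1.32), and the cell cycle list lies at -3.05 for all monocytes and at -0.77 without the large barcodes.

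Outside the lists, Flt1, a receptor of vascular growth factors, was at 63.7 CPM in library 1 monocytes and 11.4 CPM in library 2 monocytes, with a log2 ratio of 2.48 (1.93 to 3.02) that was 2.20 without the large barcodes. Gatm, an enzyme of creatine synthesis, was at 76.6 and 19.9 CPM, with ratios of 1.95 and, without the large barcodes, 1.84. Naaa, a lysosomal lipid amidase, was at 147 and 47.7 CPM, with ratios of 1.63 and 1.41. Lpl, lipoprotein lipase, was at 83.7 and 22.9 CPM, with a ratio of 1.87 and, without the large barcodes, 1.88. Of 15 genes known to respond to tissue dissociation, 2 were higher in library 1 and 0 lower (median 0.31), the phosphatase Dusp1 and the RNA-binding protein Zfp36, which were at 0.92 and 0.96 without the large barcodes. Without them 2 other genes of the list, Hspa1b and Egr1, were higher and 0 lower (median 0.48). Their part in the other ratios was not tested.

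Since miR-21 was removed from the tumour cells and not from the host, its reported targets were read as a description. Of 16 listed targets 9 had enough UMIs, of which 1 was higher in library 1 (Peli1, 187 and 88.2 CPM) and 1 lower (Tpm1, 8.25 and 120 CPM), with a median of 0.19. Without the large barcodes 0 were higher and 1 lower, with a median of 0.35. The ratio of Tpm1 was then -1.12 in place of -3.86, and Peli1 was under 2-fold at 0.95. Pdcd4, a target known from tumour cells, had a ratio of 0.19 (-0.39 to 0.73), an interval that includes 0.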

How the data were processed

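CD45+ cells of tumours were sequenced at transcript 3′ ends in droplets, with 2 groups and 1 library each. The authors deposited 1 matrix of raw UMI counts for 31053 genes and 12514 barcodes, with no normalization. The submitters' processing notes name Cell Ranger and the build mm10, and the version is 3.1.0, per the file headers. No source used here gives the strand or the rule for calling cells. Barcode suffixes gave 2 libraries that no source ties to a group, and replicates were not available.

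Monocytes were found by the UMI limits given with the results. Counts were summed per kind of cell and library as CPM with exact Poisson intervals. Log2 ratios have exact conditional binomial intervals, and a count of 0 was set to 3 counts. Rule genes and mitochondrial and ribosomal protein genes were left out of the comparisons. The ratio step recovered known folds in simulated counts. Cells were thinned to 4000 UMIs for spreads and Spearman correlations, for which no cell was too shallow. Scrublet scores served as an alternative only.

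Of 345 listed genes 344 were found, and 71 gene IDs share a symbol with another. Members and gene lists were chosen with earlier results of these data known. Named genes are list members and the 12 highest and 12 lowest ratios with at least 50 CPM in each comparison. Xist, Col3a1, Clec10a and the genes most like another over cells were chosen after their values were seen. Python 3.11.15, numpy 2.4.6, scipy 1.17.1, pandas 2.3.3 and scanpy 1.11.5 were used.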

Additional observations from a re-analysis of the deposited data

Results flagged for a closer look

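Among the genes that pass the UMI minimum in both libraries, 2 had ratios of monocytes over C1q macrophages past 2-fold in opposite directions in the libraries, and the difference was not tested. Xcl1, a chemokine of NK and T cells, had a log2 ratio of -3.55 in library 1 and 1.09 in library 2. It had 3 UMIs in library 1 monocytes and 900 in library 2 monocytes, and 76.1% of the 900 lay in the 29 barcodes over 20000 UMIs. Clec10a, a lectin of dendritic cells and macrophages, had log2 ratios of -1.94 and 1.13. It rested on 4 UMIs in library 1 monocytes and 55 in library 2 monocytes, with 4.72 and 9.68 CPM against 18.1 and 4.42 CPM in macrophages.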

How the results depend on the processing

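No paired analysis was possible because each group has 1 library and no library number is tied to a group. Counts of genes past 2-fold are given as higher and lower in monocytes than in MHC-II-high cells, then than in C1q macrophages, then in library 1 than in library 2. They were 26 and 19, 164 and 578, and 242 and 360. With a minimum of 30 UMIs they were 47 and 52, 250 and 1099, and 497 and 966, where fewer UMIs admit more genes. With a minimum of 300 they were 12 and 8, 107 and 221, and 90 and 115. With limits scaled to 10000 UMIs per barcode, 147 genes were higher in library 1, and the share of monocytes in library 2 was 7.425%. Giving each cell the same weight left 214 genes lower in library 1.

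Further alternatives were chosen after seeing the data. With free RNA estimated from NK cell genes subtracted, at 0.299% in library 1 and 30.8% in library 2, 895 genes were lower than in macrophages, and 418 and 140 were higher and lower in library 1. Cells of at least 10000 UMIs gave 13 genes higher than in MHC-II-high cells, 99 higher than in macrophages, and 685 and 793 higher and lower in library 1. The monocytes were then 2.28% of barcodes in library 1 and 2.21% in library 2, and 12% and 5.82% of the myeloid barcodes. Without the barcodes over 20000 UMIs, 159 and 169 genes were higher and lower in library 1.

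Other settings left these counts within 1.5-fold and the shares within their intervals. Directions between libraries turned for Mki67 (0.93 thinned, 0.81 without the large barcodes, 4.31 with NK free RNA subtracted) and for Tagln (0.69, 0.81, and 0.19 with scaled limits). With NK free RNA subtracted they also turned for Pf4, Gzmc, Nkg7, Col1a2 and Birc5 (2.74 each, a floor), Stmn1 (4.26) and Tpm1 (2.13), and the ratio of Ccl12 over MHC-II-high cells in library 2 was -1.32. The cause was not tested. The 83 library 1 monocytes and, against MHC-II-high cells, the 29 of library 1 limit the precision.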
